A study of Mus musculus with 141 samples.

Results

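The 13 mRNAs encoded by mouse mitochondrial DNA were described in inguinal (subcutaneous) adipose tissue of the Hybrid Mouse Diversity Panel, a collection of genetically distinct inbred mouse strains. Members were all genes whose symbol starts with mt-. The annotation used here (GENCODE M21, build GRCm38) holds 37 such genes, of which 13 encode proteins, 2 encode rRNAs and 22 encode tRNAs. The 13 protein-coding genes were among the 36558 genes of the deposited tables, and the other 24 were not analysed here. The libraries came from 82 strains, 67 labelled female and 74 labelled male, with 1 library per strain and sex. According to the methods of the study, all mice started a high-fat, high-sucrose diet at 8 weeks of age, were fed it for 8 weeks and were fasted for 4 hours before tissue was taken, so no group on another diet was compared. None of the labels names a transgene or a treatment, and the groups are therefore sex and strain. The label of 1 strain, BXD24/TyJ-Cep290<rd16>/J, names an allele of Cep290, and its female and male libraries were counted with BXD and among the matched strains. By strain name there were 21 female and 23 male libraries of classical inbred strains, 32 and 34 of BXD strains (recombinant inbred lines of C57BL/6J and DBA/2J), 9 and 11 of AXB and BXA strains (A/J and C57BL/6J, in either order), 3 and 3 of CXB strains (BALB/c and C57BL/6) and 2 and 3 of BXH strains (C57BL/6J and C3H/HeJ). Strains of a recombinant family share their founders, and a sex difference of a strain rests on 1 library against 1.

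Mitochondrial DNA is a small circular genome, inherited from the mother, whose mRNAs all encode subunits of the oxidative phosphorylation complexes. The other subunits of those complexes are encoded in the nucleus, so the output of both genomes has to be matched. Each strand is transcribed as a long precursor that is cut at the tRNAs into single mRNAs, and the level of a mature mRNA therefore depends on stability and decay as well as on transcription. Pieces of mitochondrial DNA have also been copied into nuclear chromosomes, where they are annotated as pseudogenes.

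The sequences of some members decide what the counts can tell apart, and they are given here because later comparisons of mt-Nd3, mt-Atp6, mt-Atp8, mt-Nd4 and mt-Nd4l rest on them. mt-Nd3, a complex I subunit, lies at chrM:9459-9806 on the plus strand, and Gm28438, an unprocessed pseudogene at chr1:24612775-24613119 on the minus strand, matches it over 345 bases with 1 mismatch. That mismatch is T3C, counted from the first base of mt-Nd3, at position 9461 of the mitochondrial genome. The first 60 bases of each transcript (chrM:9459-9518 and chr1:24613060-24613119) are shown 5′ to 3′ with the differing base in capitals, from the GENCODE M21 transcripts.
mt-Nd3: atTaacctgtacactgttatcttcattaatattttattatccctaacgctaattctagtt
Gm28438: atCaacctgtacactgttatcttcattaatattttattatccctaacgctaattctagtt
A read within the 345 matched bases that does not cover this base fits either gene equally well.

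Neighbouring members also share bases on the mitochondrial genome itself. The reading frames of mt-Atp8 and mt-Atp6, subunits of ATP synthase, overlap by 43 bases, shown in capitals within chrM:7912-7984 (plus strand).
mt-Atp8/mt-Atp6: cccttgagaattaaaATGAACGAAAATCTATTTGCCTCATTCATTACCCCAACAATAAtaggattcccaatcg
Those of mt-Nd4l and mt-Nd4, both of complex I, overlap by 7 bases, in capitals within chrM:10152-10188 (plus strand).
mt-Nd4l/mt-Nd4: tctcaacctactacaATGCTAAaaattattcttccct
mt-Nd5 (chrM:11742-13565, plus strand) and mt-Nd6 (chrM:13552-14070, minus strand) overlap by 14 bases on opposite strands. mt-Nd6 is the only one of these 13 genes on the minus strand. Reads in these overlaps fit both genes of a pair, and the strand setting of the counting is not given in the sources used here.

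The libraries held between 6269154 and 78562648 estimated counts, with a median of 30233245. Adipocyte markers were high (Adipoq, the adipokine adiponectin, had a median of 2104 TPM and a lowest value of 302, where TPM is transcripts per 1000000 after correction for transcript length), and Ucp1, which marks brown and beige adipocytes, ranged from 0 to 1276 TPM with a median of 7.20. Y-linked genes summed to 2.51 to 15.4 TPM in 65 libraries labelled female and to 57.3 to 414 TPM in 73 labelled male, but 3 libraries went against their label: NZW/LacJ labelled male (4.08 TPM) and, labelled female, BXD34/TyJ (221) and BXD69/RwwJ (264). NZW/LacJ is 1 of the 59 strains with a library of each sex. The other two have no male partner and are not among the 59.

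The 13 genes took between 3.99% and 29.9% of all estimated counts of a library, with a median of 8.51%. The female libraries spanned 3.99% to 29.9% (median 8.60%) and the male libraries 4.44% to 25.1% (median 8.40%), so the sexes overlapped across nearly their whole range. In bulk tissue, fewer cells of a type and less RNA per cell cannot be told apart, and a share also moves with every other gene. The highest share was that of the library labelled BXD34/TyJ female, which also had the lowest total and is 1 of the 3 libraries against their label. Without it the range ended at 25.8% (BXD14/TyJ female), followed by CXB11/HiAJ male (25.1%) and MA/MyJ female (20.98%). The lowest shares were those of AXB12/PgnJ female (3.99%) and BXA24/PgnJ male (4.44%).

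Medians of the share for female and male libraries were 8.60% and 8.25% in the inbred strains, 9.50% and 8.83% in BXD, 7.56% and 8.30% in AXB and BXA, 11.8% and 11.4% in CXB, and 8.21% and 6.21% in BXH. The CXB medians rest on 3 libraries each, which spanned 8.08% to 15.3% in females and 9.86% to 25.1% in males. Within BXD, the female libraries of the older lines (names ending in TyJ, n = 9) had a median of 12.7%. Those of the newer lines (RwwJ, n = 23) had a median of 9.20%. Their ranges of 5.74% to 29.9% and 4.92% to 19.9% overlapped. The values of 29.9% and 4.92% were those of BXD34/TyJ and BXD69/RwwJ, both against their label. In male libraries the medians were 9.24% (TyJ, n = 12) and 8.59% (RwwJ, n = 22).

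**Figure D1:**
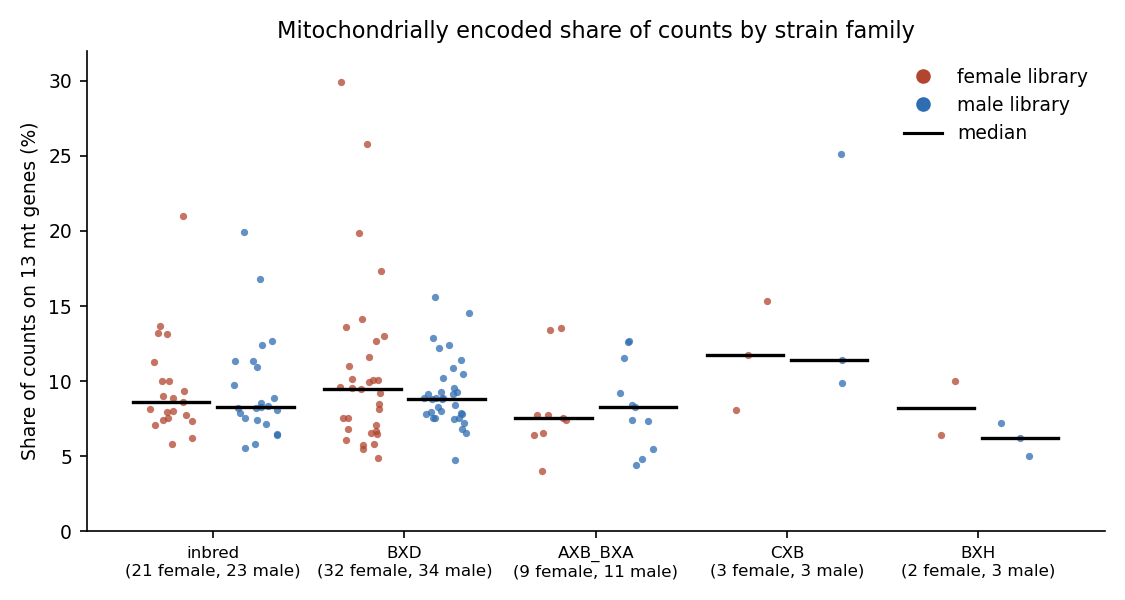
Share of estimated counts on the 13 mitochondrially encoded genes (y axis, percent) in each library, by strain family and labelled sex (points; black bars are medians). Most libraries sit near the overall median of 8.51%, while single libraries of the inbred, BXD and CXB strains reach 20.98%, 29.9% and 25.1%.

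Libraries of the same strain resembled each other only weakly in this share. Over the 59 strains with both sexes, the mean was 9.78% in females and 9.66% in males, a difference of 0.113 percentage points with an SD of 4.71 between strains, and the female library was higher in 27 of 59 strains. Without NZW/LacJ, whose male library went against its label, the difference was 0.228 percentage points. Pearson's r between the sexes was 0.205 (95% interval −0.054 to 0.438) and Spearman's rho was 0.264. Without BXD14/TyJ and MA/MyJ, the strains whose female libraries lay farthest from the female median, r was 0.273, and without NZW/LacJ it was 0.222. CXB11/HiAJ, with the highest male share, was kept in both. In 19 strains the shares of the sexes differed by more than 1.5-fold. Few strains were extreme in both sexes: AXB13/PgnJ (13.4% female, 12.6% male) and CXB11/HiAJ (15.3% and 25.1%) were among the 10 highest of each sex, and BXD85/RwwJ (5.46% and 4.72%), BXD86/RwwJ (6.55% and 6.55%) and BXH8/TyJ (6.42% and 7.23%) among the 10 lowest.

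The division of these counts among the respiratory complexes varied far less than their total. The 3 complex IV genes took a median of 43.3% of mitochondrially encoded counts (38.4% to 50.004%), the 7 complex I genes 33.7% (27.6% to 38.02%), the 2 ATP synthase genes 12.04% (7.14% to 14.9%) and mt-Cytb, the only complex III gene, 11.4% (9.16% to 13.1%). Counts on nuclear copies are not in these shares. The lowest ATP synthase share was that of BXD34/TyJ female, where Gm10925, a nuclear copy of mt-Atp6, held 58.3% of the counts of that pair.

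On the TPM scale, which corrects for transcript length, 12 of the 13 genes were among the 20 genes with the highest median of the whole table, and mt-Nd6 was at rank 32. Levels of single genes are given first as TPM, as the lowest, median and highest value over the libraries of both sexes. Among the ATP synthase subunits, mt-Atp6 had 12883, 32838 and 122492, the highest median of all genes. mt-Atp8 had 9732, 27635 and 63710. The cytochrome c oxidase (complex IV) subunits followed closely. mt-Co2 had 12747, 28545 and 87252. mt-Co1, the catalytic subunit, had 11289, 26847 and 71119. mt-Co3 had 9257, 20048 and 57965. The median of mt-Co3 was thus the lowest of the complex IV genes, and mt-Cytb, the cytochrome b of complex III, came next with 5697, 16036 and 47303.

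The NADH dehydrogenase (complex I) subunits filled the lower places of the order. mt-Nd4 had 5322, 15827 and 40113. mt-Nd1 had 6826, 14285 and 41812. mt-Nd2 had 4438, 11380 and 29724. Like mt-Nd4, these are core membrane subunits, and their medians lay within 1.5-fold of each other. mt-Nd4l had 2812, 11152 and 26918. mt-Nd5 had 1856, 6001 and 11356. The remaining complex I genes were the lowest. mt-Nd3 had 53.4, 4119 and 15577, the widest relative range of any member, with its lowest value in A/J male. mt-Nd6 had 960, 1890 and 9297.

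Several neighbours in this order were not separated. mt-Atp8 exceeded mt-Co1 in 74 libraries and was below it in 67, mt-Nd2 exceeded mt-Nd4l in 77 and was below it in 64, mt-Co2 exceeded mt-Atp8 in 89 and was below it in 52, and mt-Cytb exceeded mt-Nd4 in 93 and was below it in 48. A pair of steps held in nearly every library, as mt-Nd5 exceeded mt-Nd4l in 0 libraries and mt-Nd2 exceeded mt-Nd1 in 1. mt-Co2 exceeded mt-Atp6 in 20 libraries. mt-Nd3 exceeded mt-Nd5 in 40 libraries, and mt-Nd6 exceeded mt-Nd3 in 40.

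**Figure D2:**
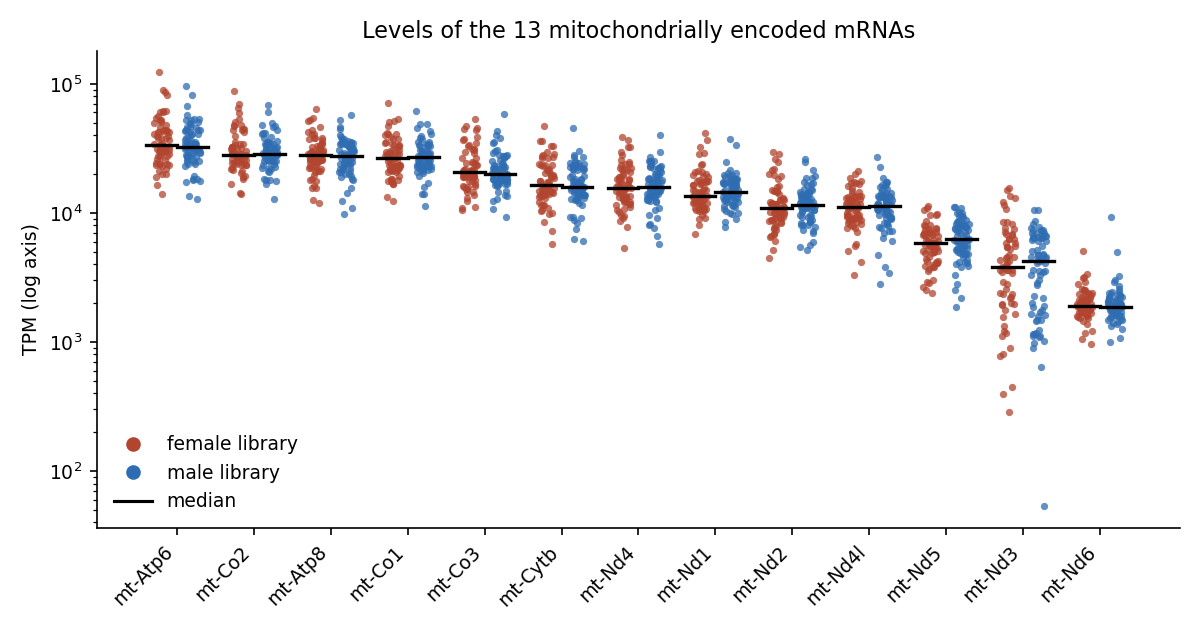
TPM of each mitochondrially encoded mRNA (log axis) in each library, ordered by median, with labelled female and male libraries apart (black bars are medians). Levels fall from mt-Atp6 (median 32838) to mt-Nd6 (1890), and mt-Nd3 spreads most, from 53.4 to 15577.

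Part of a member's reads may stand on the rows of its nuclear copies, though no copy was found for mt-Nd1 or mt-Atp8. A search by shared words of 31 bases found 15 pseudogenes among the deposited genes that match a member. Of these, 7 lay side by side at chr1:24611535-24616197 on the minus strand. Over their own length they were 98.8% to 100% identical to mt-Co1 (in part), mt-Co2, mt-Atp6, mt-Co3, mt-Nd3, mt-Nd4l and mt-Nd4 (in part). Gm29216, a copy of part of mt-Co1, held a median of 14.2% of the counts of its pair with mt-Co1 (4.52% to 29.1%) and had over 10 counts in every library. Gm10925 held a median of 6.67% of its pair with mt-Atp6 and up to 58.3%, in the library labelled BXD34/TyJ female. Gm10222 (mt-Nd4l) and Gm28439 (mt-Nd4), identical to their members over their own length, had a median of 0 counts. Gm28439 has 876 bases and mt-Nd4 has 1378, so it is a copy of a part. Because counts in such pairs were divided by estimation, values with the copies added to their member are given beside the deposited ones below. With the copies added, mt-Co1 had the highest median TPM (44942) and was below mt-Atp6 in only 8 libraries. That sum adds TPM over unequal lengths, since Gm29216 has 492 bases and mt-Co1 has 1545, so it overstates mt-Co1. The place of mt-Co1 with this length difference taken into account was not computed. With its copy added, mt-Nd3 (6558) stood above mt-Nd5 (6002), which it exceeded in 86 libraries.

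The split between mt-Nd3 and Gm28438 differed by the start of the strain name, with exceptions in BXD, AXB, CXB and inbred strains. Gm28438 held a median of 1.04% of the counts of the pair in the 66 BXD libraries, 0.015% in 5 BXH libraries and 0.536% in 8 BXA libraries, against 73.4% in 12 AXB, 69.5% in 6 CXB and 71.99% in 44 inbred libraries. By convention the first letter of a recombinant strain's name stands for the strain of its female founder, B being C57BL/6. C57BL/6J itself had 0.223% (female) and 0.244% (male), while DBA/2J had 60.7% and 69.9% and C3H/HeJ 73.4% and 68.6%. The base that each strain carries at position 9461 was not analysed here.

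Gm28438 held under 50% of the pair in 62 of 66 BXD, 5 of 5 BXH and 8 of 8 BXA libraries, against 3 of 12 AXB, 1 of 6 CXB and 3 of 44 inbred libraries. AXB12/PgnJ was low in both sexes (0.1% and 0.115%), and BXD74/RwwJ was high in both (87.9% and 82.2%). Elsewhere the sexes of a strain disagreed: BXD75/RwwJ had 97.3% in the female and 23.9% in the male library, BXD14/TyJ 97.3% and 12.7%, and BALB/cJ 3.25% and 73.9%. A/J had 63.9% in the female and 98.7% in the male library, where mt-Nd3 kept only 233 estimated counts against 17514 of Gm28438. Over the 59 matched strains, both libraries lay on the same side of 50% in 54, with r of 0.738 and rho of 0.680 between the sexes.

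**Figure D3:**
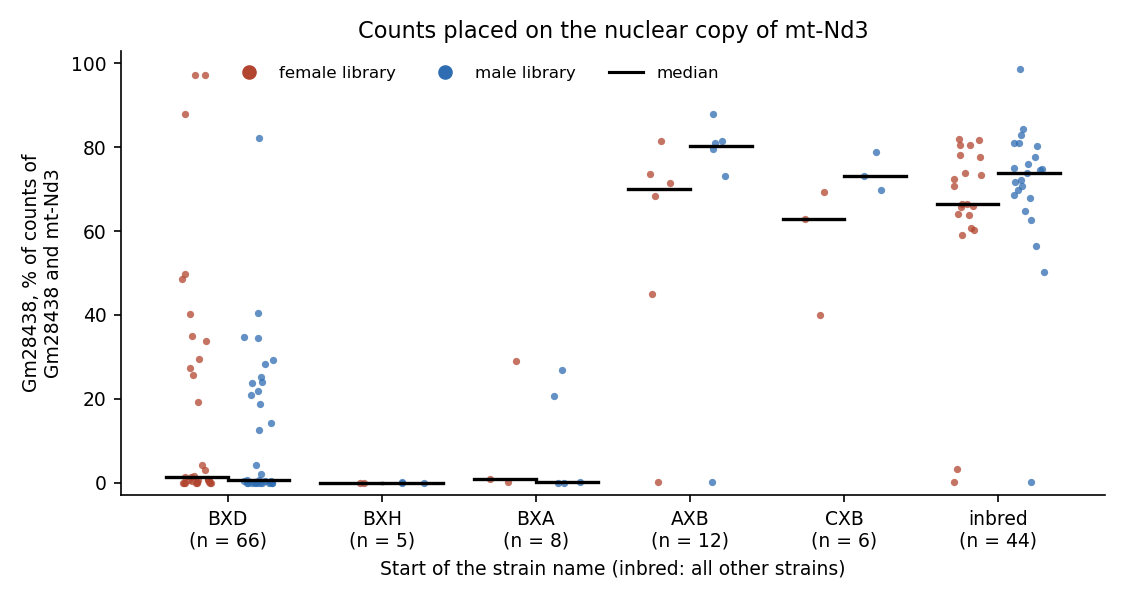
Share of the pseudogene Gm28438 in the estimated counts of Gm28438 and mt-Nd3 together (y axis, percent) in each library, grouped by the start of the strain name and by labelled sex (black bars are medians). The share is under 50% in 62 of 66 BXD, 5 of 5 BXH and 8 of 8 BXA libraries (BXA reaching 29.1%), and in 3 of 12 AXB, 1 of 6 CXB and 3 of 44 inbred libraries.

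Another strain stood apart on other copies. In NZB/BlNJ, Gm13340, a copy of mt-Co1 on chromosome 2, held 4.69% (female) and 4.49% (male) of the counts of its pair with mt-Co1, while the median over all libraries was 0.0176%. NZB/BlNJ libraries also had the highest shares of Gm13339 (mt-Nd2), Gm4076 (mt-Nd5), Gm11408 (mt-Nd6) and Gm11410 (mt-Cytb). Their Gm29216 shares of the pair with mt-Co1, 4.52% and 5.66%, were the lowest of their sex.

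The first comparison asked which of these mRNAs differ between the sexes. Counts were scaled by TMM and tested with edgeR's quasi-likelihood test on the model Strain + Sex over the 59 matched strains, with Benjamini-Hochberg adjusted p under 0.05 as the threshold over 16765 genes that passed a filter on low counts, all 13 members among them. Fold changes are log2, female minus male, and CPM below is counts per 1000000 of the TMM-scaled total. mt-Nd5, the complex I subunit at the far end of the proton-pumping arm, was the 1 member of 13 that fell in females. Its CPM spanned 2068 to 18024 (median 5205) in females and 2601 to 18113 (median 6748) in males. The ranges overlapped nearly entirely, but within strains the female library was the lower in all but 18 of 59. Its log2 fold change was −0.31 (SE 0.094, edgeR adjusted p = 0.00344), a female level of 0.805 times the male level.

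Against the whole table that count was low: 30% of tested genes had a lower female level and 28.5% a higher one. None of the 13 was higher in females. The remaining 12 had log2 fold changes of −0.18 to 0.03 with edgeR adjusted p of 0.103 to 0.89, none with an unadjusted p under 0.05. Values were −0.16 for mt-Nd1, −0.15 for mt-Nd2, −0.18 for mt-Nd4l and −0.15 for mt-Nd4. In complex IV they were −0.14 for mt-Co1, −0.09 for mt-Co2 and −0.05 for mt-Co3. mt-Cytb stood at −0.07, mt-Atp8 at −0.08, mt-Atp6 at −0.05, mt-Nd6 at −0.05 and mt-Nd3 at 0.03, or at 0.07 without NZW/LacJ. In all, 12 of 13 were negative with a median of −0.09, where the median of all genes was 0.01. The direction of 6 of them turned with the scaling: without TMM, by library totals alone, the median of all genes moved to 0.12 and mt-Co2, mt-Atp8, mt-Atp6, mt-Co3, mt-Nd6 and mt-Cytb became positive (0.02 to 0.06), still not past the threshold.

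Leaving out NZW/LacJ gave −0.31 for mt-Nd5 (edgeR adjusted p = 0.00362), and adding the nuclear copies gave −0.31 (0.00338). Without strain in the model and with all libraries, it was −0.12 and did not pass (edgeR adjusted p = 0.345). Marker lists of other cell types moved with sex in the same 59 strains: all 5 macrophage, all 4 endothelial and all 5 adipocyte markers were lower in females, all 9 mammary epithelial markers were higher, and 0 of 6 lymphocyte and 0 of 5 tested muscle markers passed the test. Of 5 brown and beige markers 1 was lower and 1 higher, and of 5 fibroblast markers 2 were lower and 1 higher. Summed levels are given over all 67 female and 74 male libraries rather than the 59 strains. Mammary markers spanned 0.907 to 2176 CPM in female and 0.285 to 476 CPM in male libraries, with Krt5 and Krt14 at a median of 0 in males. The lowest female value was that of BXD69/RwwJ, against its label, and without the 3 libraries against their label the ranges were 80.4 to 2176 and 0.285 to 319 CPM. The value of 319 CPM was that of PL/J male, of a matched strain, where the male median was 2.46. Without PL/J, mt-Nd5 stood at −0.31 (edgeR adjusted p = 0.00455). Summed macrophage markers spanned 239 to 4477 CPM (median 691) in females and 227 to 2363 (median 826) in males, endothelial markers 443 to 1609 (765) and 526.1 to 1943 (1099), and adipocyte markers 3306 to 34563 (17718) and 7511 to 42300 (24012), the lowest male value being 12748 without those 3 libraries. Their part in the result for mt-Nd5 was not tested.

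**Figure D4:**
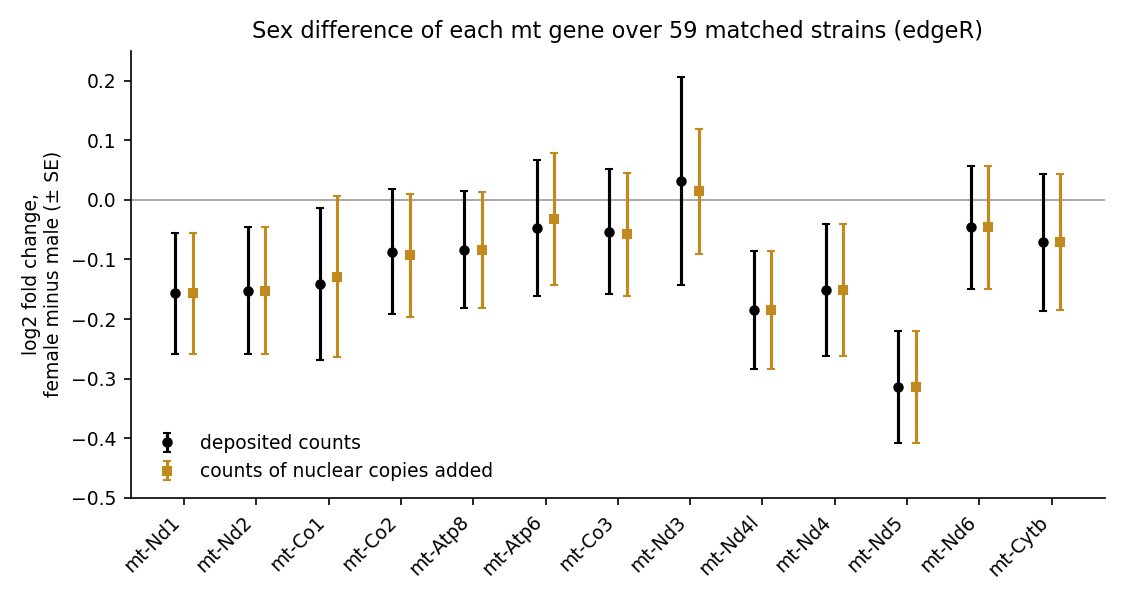
Log2 fold change of each mitochondrially encoded gene, female minus male, over 59 matched strains (edgeR, error bars are SE), for deposited counts (circles) and with the counts of nuclear copies added (squares). mt-Nd5 lies lowest, at −0.31, mt-Nd3 has the widest error, and 12 of 13 lie below 0 with TMM scaling.

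Whether the sex difference itself depended on the family was tested with an interaction term for BXD against inbred strains (26 and 20 matched strains). No member passed (p of 0.169 to 0.698, edgeR adjusted p of 1.0 for each after rounding), and neither did any of the 16754 genes tested. The sex effect of mt-Nd5 was 0.28 higher in BXD on the log2 scale, with an SE of 0.204.

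The next comparison asked how far the level of each mRNA belongs to the strain. The strain term of the same edgeR model passed for 11 of the 13 members, beside 75.8% of all genes. mt-Nd6 had the lowest edgeR adjusted p (0.000619), followed by mt-Atp8 (0.00246), mt-Nd3 (0.00343) and mt-Co3 (0.00467). mt-Co1 (0.541) and mt-Nd4 (0.0775) did not pass. Without a filter on low counts all 13 members passed, mt-Co1 included.

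The correlation of log2 CPM between both libraries of each strain gave a smaller number. It passed for 4 of 13 members (permutation test over strains, adjusted over all genes), beside 52.2% of all genes with r above 0. These were mt-Nd3 (r = 0.36, rho = 0.45, permutation adjusted p = 0.014), mt-Co3 (r = 0.34, adjusted p = 0.0215), mt-Co2 (r = 0.31, 0.0357) and mt-Cytb (r = 0.30, 0.0422). Over the 13 members r ran from 0.17 (mt-Nd4l) to 0.36, with a median of 0.29, where the median of all genes was 0.30. By Spearman's rho 6 members passed. With the copies added, r of mt-Nd3 was 0.28. The strain with the highest mean of both sexes was CXB11/HiAJ for 11 members, and the lowest was BXD85/RwwJ for 9.

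Within a sex, the members rose and fell together across strains. The mean of the female and male Pearson correlations of log2 CPM between pairs of members had its median per gene between 0.73 (mt-Nd6) and 0.94 (mt-Nd4) in all but mt-Nd3, and the closest pair was mt-Nd4 and mt-Cytb (0.99). mt-Nd3 had a median of 0.32 with the others. This rests on deposited counts, where Gm28438 held 0% to 98.7% of the counts of its pair with mt-Nd3. The value with the copies added is not given here. All correlations between members are across libraries that share their scaling, and the genes of a pair come from the same library.

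Ratios between members were compared in the same strains. A ratio of counts within a library does not depend on its depth or scaling. It is not corrected for transcript length, as TPM is, and mt-Atp8 has 204 bases against 681 of mt-Atp6. Of 8 ratios tested, 8 agreed between the sexes of a strain, on counts and on TPM (permutation tests over 59 strains, adjusted over the 8 ratios). On counts, agreement was closest for mt-Atp8/mt-Atp6 (r = 0.71, rho = 0.66), mt-Nd2/mt-Nd1 (r = 0.71, rho = 0.70) and mt-Nd4l/mt-Nd4 (r = 0.69, rho = 0.68), each with a permutation adjusted p of 1.6e-05. mt-Co3/mt-Co1 (0.61), mt-Co2/mt-Co1 (0.56), mt-Nd5/mt-Co1 (0.54) and mt-Cytb/mt-Co1 (0.50) followed, and mt-Nd6/mt-Nd5 was lowest (r = 0.41, rho = 0.53, permutation adjusted p = 0.00134). Without PL/J, whose male library stood apart in this ratio, r of mt-Nd6/mt-Nd5 was 0.61, and mt-Cytb/mt-Co1 was lowest (0.53). On TPM, mt-Atp8/mt-Atp6 was the lowest of the 8 (r = 0.39, permutation adjusted p = 0.00204), and mt-Nd2/mt-Nd1 had r = 0.69. On counts, leaving out the strains whose female ratio lay farthest from the median moved r to between 0.40 and 0.69. The pairs mt-Atp8/mt-Atp6 and mt-Nd4l/mt-Nd4 are those with overlapping reading frames shown above. The number in the library's title was close for the sexes of some strains, such as BXD50/RwwJ (1055 and 1057). In others, such as C57BL/6J (24 and 850), it was not. Whether the ratios moved with that number was not tested.

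Single strains were extreme in these ratios in both sexes. On counts, BXD12/TyJ had the lowest mt-Atp8/mt-Atp6 of all libraries in its male library (log2 ratio −3.16) and the next in its female library (−2.93), against a median of −2.43, or 18.5 counts of mt-Atp8 per 100 of mt-Atp6. By TPM the female libraries of BXD14/TyJ and MA/MyJ had a lower ratio than either BXD12/TyJ library. mt-Nd2/mt-Nd1 ran from −0.68 (I/LnJ female) to 0.12 (BXD75/RwwJ female) with a median of −0.23. mt-Nd5/mt-Co1 ran from −2.89 (FVB/NJ female) to −1.39 (BXD74/RwwJ male). mt-Nd6/mt-Nd5 had by far the widest range, from −4.32 (BXD60/RwwJ male) to −0.85. At its upper end BXD27/TyJ female (−0.85), BXA24/PgnJ male (−0.86) and PL/J male (−1.09) stood apart from the next library (−2.19). Their totals, 12057946, 11747373 and 20568201 counts, were under the median of 30233245.

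**Figure D5:**
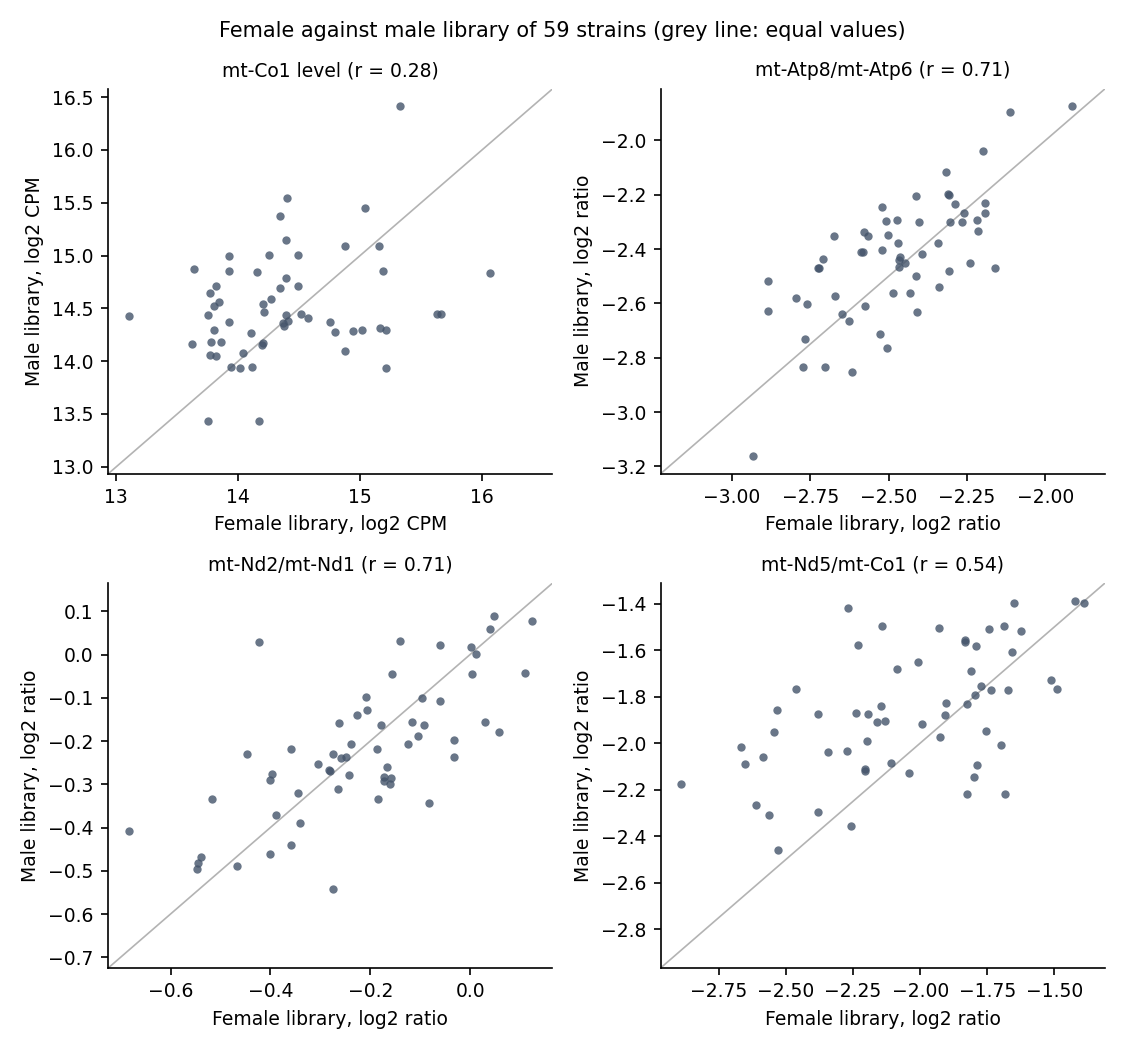
Male library (y axis) against female library (x axis) of 59 strains for the mt-Co1 level (log2 CPM) and for 3 log2 ratios of counts (points are strains, the grey line marks equal values). Points gather closer to the line for mt-Atp8/mt-Atp6 and mt-Nd2/mt-Nd1 (r = 0.71 each on counts) than for the mt-Co1 level (r = 0.28), while on TPM, not plotted, r of mt-Atp8/mt-Atp6 was 0.39.

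Of the 8 ratios, 5 differed between the sexes (permutation of signs over strains, adjusted over the 8). mt-Nd5/mt-Co1 was lower in females by a mean log2 of −0.18 (SE 0.0399, permutation adjusted p = 0.00032), and was higher in the female library in 15 of 59 strains. mt-Nd6/mt-Nd5 was higher in females, by 0.26 (SE 0.0703, permutation adjusted p = 0.00084) in 46 of 59 strains, and by 0.31 in 46 of 58 without PL/J. Both ratios contain mt-Nd5, the gene that fell in females by itself. The complex III and IV ratios over mt-Co1 moved less. mt-Co3/mt-Co1 was higher in females by 0.09 (permutation adjusted p = 0.00131), mt-Cytb/mt-Co1 by 0.07 (0.00332) and mt-Co2/mt-Co1 by 0.06 (0.0149). These share mt-Co1, so they are not separate observations. mt-Atp8/mt-Atp6 (−0.04), mt-Nd4l/mt-Nd4 (−0.04) and mt-Nd2/mt-Nd1 (0.0038) did not pass.

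Families were compared with the inbred strains within each sex, with edgeR over all libraries of that sex. In BXD, 1 of 13 members was higher than in the inbred strains in females and 1 in males, both mt-Nd3, and 0 were lower. Of all genes, 3.74% were higher and 5.43% lower in BXD females, and 3.47% higher and 6.83% lower in BXD males. mt-Nd3 CPM spanned 49.6 to 5401 (median 546) in BXD females and 84.3 to 1106 (median 242) in inbred females, and 76.6 to 1580 (median 725) in BXD males and 7.46 to 726 (median 200) in inbred males. The groups overlapped in both sexes. The log2 fold change was 1.32 (SE 0.336, edgeR adjusted p = 0.00706) in females and 1.53 in males (edgeR adjusted p = 4.57e-06).

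The call for mt-Nd3 was lost when the counts of Gm28438 were added. The log2 fold change was then 0.27 in females (edgeR adjusted p = 0.52) and −0.03 in males (edgeR adjusted p = 0.923), with medians of 726 CPM in BXD and 756 in inbred females and of 805 and 773 in males. The other 12 members had log2 fold changes between 0.09 (mt-Co3) and 0.52 (mt-Nd5, SE 0.198, edgeR adjusted p = 0.0797) in BXD females, and none passed. In BXD males the same 12 lay between −0.34 (mt-Nd6) and 0.13 (mt-Nd5), and none passed there. DESeq2 also called mt-Nd5 in females. Without the libraries against their label, 1 member was called in each sex. In AXB and BXA, 0 of 13 members differed from the inbred strains in either sex, by edgeR, DESeq2 or limma-voom, and 0 had an unadjusted p under 0.05 in edgeR. Of all genes, 2.19% were below and 2.44% above the inbred level in female libraries, and 1.86% and 1.64% in male libraries.

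Ratios between members differed between BXD and inbred strains in 5 of 16 tests (permutation of libraries, adjusted over both sexes and all 8 ratios). In females, mt-Co3/mt-Co1 was lower in BXD by a log2 of −0.20 (SE 0.0561, permutation adjusted p = 0.00552) and mt-Nd5/mt-Co1 was higher by 0.28 (SE 0.093, 0.0133). In males, mt-Nd4l/mt-Nd4 was lower by −0.18 (SE 0.0497, permutation adjusted p = 0.00552), mt-Atp8/mt-Atp6 lower by −0.19 (SE 0.0588, 0.0133) and mt-Nd2/mt-Nd1 higher by 0.11 (SE 0.04, 0.039). On TPM, mt-Atp8/mt-Atp6 in males was −0.07 and did not pass (permutation adjusted p = 0.344). Without NZB/BlNJ, mt-Nd2/mt-Nd1 in males was 0.10 and did not pass (permutation adjusted p = 0.0671). Each of the 5 had the same sign in the other sex without passing there, and the difference between the sexes was not tested. The ratios of the families were not set against the number in the library's title.

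mt-Co1, as the member with the most counts, was set against summed marker lists, library total and the number in the library's title in each sex, 20 relations in all with permutation p adjusted over them. It was higher where brown and beige adipocyte markers (Ucp1, Cidea, Cox8b, Elovl3, Cpt1b) were higher. The Pearson correlation of log2 values was 0.62 in 67 female libraries (rho = 0.64) and 0.63 in 74 male libraries (rho = 0.61), each with a permutation adjusted p of 6.67e-05, which rests on the smallest p that the permutations can give (1e-05). Without the libraries farthest from the median, r was 0.53 and 0.57. Without the libraries against their label it was 0.79 and 0.64. Of the libraries with the highest mitochondrially encoded share, BXD14/TyJ female, MA/MyJ female, SJL/J male, BXD75/RwwJ female, SWR/J male and BXD50/RwwJ female had summed brown and beige markers of 1320 to 4257 CPM, where the medians were 65.4 in females and 89.8 in males. BXD34/TyJ female (26.3 CPM) and CXB11/HiAJ male (242) reached high shares at lower marker levels. The 5 libraries with the lowest shares had 12.1 to 42.6 CPM.

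Macrophage markers moved the other way. r with mt-Co1 was −0.57 in females (rho = −0.61, permutation adjusted p = 6.67e-05) and −0.37 in males (rho = −0.29, 0.0054), and −0.50 and −0.29 without the farthest libraries. Without the libraries against their label it was −0.62 and −0.37. AXB12/PgnJ female, with the lowest share, also had the lowest summed adipocyte markers (3306 CPM) and the highest lymphocyte markers (1158 CPM) of the female libraries. Adipocyte markers had r of 0.26 in females and 0.28 in males, not past the threshold (permutation adjusted p = 0.0698 and 0.0527), though rho (0.32 and 0.30) was, with 0.0368 in both. Library total had r of 0.42 in males (permutation adjusted p = 0.00355), which rests on BXA24/PgnJ and CXB11/HiAJ: without them r was 0.10. The part of these markers in the level of mt-Co1 was not tested. The other 13 relations had permutation adjusted p of 0.0527 to 0.817.

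The nuclear genes whose log2 CPM moved most like mt-Co1 (mean of the Pearson correlations in 67 female and 74 male libraries, a description without a test) began with sequence relatives of mitochondrial DNA. Gm13341, a copy of mt-Co2 on chromosome 2, had 0.92, Gm29216 had 0.79, and Gm20594, which shares 42 words of 31 bases with the 16S rRNA gene mt-Rnr2, had 0.86. The first 10 also held Ndufs1 (0.82), Mmaa (0.81), Idh3b (0.79), Fh1 (0.78), Oxnad1 (0.78) and Ndufa10 (0.78). Ndufs1 and Ndufa10 encode complex I subunits, Idh3b and Fh1 encode enzymes of the tricarboxylic acid cycle, and Mmaa acts in mitochondrial cobalamin metabolism. Ppargc1a, a coactivator of mitochondrial gene programmes and named here after its value was seen, was at rank 18 (0.76).

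The nuclear genes that transcribe and process mitochondrial RNA were taken from 3 lists. Their counts stand beside 30% of all tested genes lower in females, 28.5% higher and 75.8% with a strain term past the threshold. Of 12 genes of mitochondrial transcription, 4 were lower and 3 were higher in females by edgeR, with a median log2 fold change of −0.05, and 10 had a strain term past the threshold. The lower genes were led by Mterf2 (−0.32, SE 0.0421, edgeR adjusted p = 2.35e-09), a member of the mitochondrial termination factor family, and Tefm (−0.19, SE 0.0399, 5.9e-05), the elongation factor. Mterf2 was higher in the female library in 10 of 59 strains. Of 20 genes of RNA processing, stability and decay, 7 were lower, 0 were higher and 19 had a strain term past the threshold, with a median log2 fold change of −0.06. Mtpap, the mitochondrial poly(A) polymerase, stood at −0.20 (SE 0.0297, edgeR adjusted p = 5.44e-08) and Rexo2, a mitochondrial oligoribonuclease, at −0.20 (SE 0.05, 0.000676).

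Of 10 regulators of mitochondrial content, 3 were lower and 4 were higher in females, with a median of 0.05, and 6 had a strain term past the threshold, beside 75.8% of all genes. Gabpa, a transcription factor of nuclear mitochondrial genes, stood at −0.10 (SE 0.0239, edgeR adjusted p = 0.000241). By strain, Mterf3, another member of the termination factor family, had the lowest edgeR adjusted p of the lists (3.72e-11), with r of 0.77 between the sexes, above the r of any of the 13 mitochondrial mRNAs. Tfb1m, an rRNA methyltransferase (r = 0.63, edgeR adjusted p = 4.6e-06), Mrps12, a mitochondrial ribosomal protein (0.57, 4.2e-06), Pnpt1, the polynucleotide phosphorylase (0.56, 1.66e-05), and Ppara, a nuclear receptor of fatty acid oxidation (0.43, 2.21e-06), followed. Mean correlations with mt-Co1 had a median of 0.30 over the transcription list, 0.37 over the processing list and 0.09 over the regulators, beside −0.03 over all genes.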

How the data were processed

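Inguinal adipose RNA was sequenced by the authors as stranded paired-end mRNA libraries. The authors matched reads to transcripts with kallisto 0.46.1 (mm10, per the labels) and summed them to genes. The authors deposited each estimated count per gene as kallisto gave it, without normalization, and TPM, which they scaled for transcript length. Each column of a table matched 1 sample (0 columns had none). Groups came from the labels, which give each library a number of its own and do not say whether it is 1 animal, so p-values measure the spread between these libraries. The 2 libraries of a strain were paired because the labels give them the same inbred strain. Over all genes, the median r between them was 0.30.

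Estimated counts were rounded to whole numbers, filtered with filterByExpr, scaled by TMM and tested with edgeR 4.0.16 in R 4.3.3, with Benjamini-Hochberg adjustment over all genes tested. DESeq2 1.42.0 and limma 3.58.1 (voom, and log2(TPM + 1) or log2(TPM + 0.1)) were alternatives. Permutation tests (100000 resamples, two-sided) used SciPy 1.17.1. CPM correlations used log2 with a prior count of 2, and marker sums log2(CPM + 1). Nuclear copies were genes outside the mitochondrial genome that share at least 30 words of 31 bases with a member. Ratios with rRNA genes could not be computed. Named genes were all members, their copies, the 5 nuclear genes of the lists with the lowest adjusted p by sex and by strain, and the 10 genes most correlated with mt-Co1, of which 1 is not reported here. The members, lists and tests were chosen with earlier results of these data known. The fits recovered seeded changes in simulated counts, which were larger than the sex difference of any member. Recovery of smaller changes was not tested.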

Additional observations from a re-analysis of the deposited data

Results flagged for a closer look

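In families of 4 to 10 libraries of one sex, a library was looked at again when its gap to the nearest other library took more of the whole range than chance usually gives. Of 22 shares, ratios and levels tested in the 9 AXB and BXA female libraries, 2 were marked, and chance marks about 1 in 20 groups. The log2 ratio of mt-Nd6 to mt-Nd5 was −2.19 in AXB19/PgnJ female, above the other 8 libraries, which ran from −4.05 to −3.27. The log2 ratio of mt-Cytb to mt-Co1 was −1.53 in AXB12/PgnJ female, below the others, which ran from −1.20 to −0.99. AXB12/PgnJ female was also the library with the lowest mitochondrially encoded share (3.99%).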

How the results depend on the processing

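Strain was the block that pairs the libraries. Leaving the block out for the same 59 strains kept the count at 1 member lower in females (mt-Nd5, log2 −0.28, edgeR adjusted p = 0.0226), moved mt-Atp6 to 0.015, and called 4186 genes lower and 4221 higher in place of 5032 and 4774. With no block and all libraries, 0 members were lower, mt-Nd5 was −0.12 (edgeR adjusted p = 0.345), and mt-Nd1 (0.051), mt-Nd2 (0.031), mt-Co1 (0.041), mt-Co2 (0.096), mt-Atp8 (0.062), mt-Atp6 (0.094), mt-Co3 (0.11), mt-Nd4 (0.026), mt-Cytb (0.11) and mt-Nd4l (0.020) turned positive. In the other 14 alternatives mt-Nd5 kept an adjusted p of 0.000312 to 0.0226. Library totals turned mt-Co2 (0.022), mt-Atp8 (0.026), mt-Atp6 (0.063), mt-Co3 (0.057), mt-Nd6 (0.062) and mt-Cytb (0.038) positive, and limma on TPM with either pseudocount turned mt-Atp6 (0.030), mt-Co3 (0.015) and mt-Nd6 (0.0018). In BXD against inbred strains, adding the nuclear copies left 0 members called in females and 0 in males, and DESeq2 called 2 in females. Ratios changed sign in 3 cases: mt-Nd2/mt-Nd1 between the sexes by TPM (−0.0020), and mt-Co2/mt-Co1 between BXD and inbred strains by TPM in females (0.0011) and with copies added in males (−0.016). Of ratio calls, mt-Atp8/mt-Atp6 in BXD males was lost by TPM (−0.07) and mt-Nd2/mt-Nd1 in BXD males without NZB/BlNJ (0.10), while copies added brought mt-Atp8/mt-Atp6 between the sexes (−0.05) and mt-Co3/mt-Co1 in BXD males (−0.15) past the threshold. The cause was not tested. Alternatives with copies added in the family and strain fits, and those without PL/J, NZB/BlNJ or the libraries of high mt-Nd6/mt-Nd5, and correlations with mt-Co1 without the libraries against their label, were chosen after seeing the data. The mitochondrially encoded share of counts differed between the sexes by 0.113 to 0.228 percentage points in the settings that kept all or all but 1 strain. Without BXD14/TyJ and MA/MyJ it differed by −0.378. The share of TPM, a different measure, differed by −0.105 percentage points. The lowest count of a member was 233 (mt-Nd3 in A/J male). With 1 library per strain and sex, a strain difference cannot be told apart from a difference between single libraries.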
